A study of Mus musculus with 46 samples.

Results

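miR-6366 (mmu-miR-6366) is a mouse microRNA that was selected on its level against storage time at room temperature (RT), which fell in heart, liver and brain. It is 1 of the 1881 mouse miRNAs on the array and 1 of the 180 miRNAs that the array software called detected on all 45 analysed arrays. The tissues came from male C57BL6 mice of an Il1a knock-out strain, an allele that every group shares, and no age is given in the sources used here. Each organ was cut into pieces that were kept at 4 °C or at RT for 0, 1, 3, 6, 12, 24, 48 or 96 h and then placed in an RNA stabilizing reagent. Each tissue at each temperature comes from 1 animal, with 1 piece per time point, so that no time point is replicated. The methods take the 3 tissues of a temperature from the same individual, whereas the RNA integrity values of the heart labels equal those of another animal in the study's list than the ones of liver and brain, so that which tissues share an animal is not settled. At 4 °C there were 7 heart arrays (1 to 96 h), 6 liver arrays (no 6 h and 96 h) and 8 brain arrays, and at RT there were 8 arrays of each tissue. The arrays of a tissue at a temperature shared 1 slide, so that animal, slide and temperature cannot be told apart within a tissue.

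A miRNA is a short RNA that is cut from a hairpin precursor and guides a protein complex to messenger RNAs, which it recognises mainly through its seed near the 5′ end. In tissue kept after death, enzymes that cut RNA stay active, and the RNA integrity number (RIN) measures how far the long RNAs have been broken down. The array detects a miRNA through probes that bind its sequence, and any labelled RNA that carries a similar sequence can bind them as well. Numbers in miRNA names follow the order of registration, so that miR-6366 is a late entry in the catalogue.

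The mature sequence is shown first because the probes read it, and it is followed by the 5 miRNAs whose levels were most like those of miR-6366 at RT, described further on. The sequences are those of RefSeq (GRCm38.p6), 5′ to 3′, and the capitals mark the seed, bases 2 to 8.
miR-6366: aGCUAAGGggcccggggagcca
miR-3968: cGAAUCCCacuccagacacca
miR-125a-5p: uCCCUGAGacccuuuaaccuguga
miR-212-3p: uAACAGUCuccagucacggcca
miR-3963: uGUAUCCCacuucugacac
miR-5100: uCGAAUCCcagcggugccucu

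The mature miR-6366 has 22 bases and lies on the minus strand at chr16:18165093-18165114. Its hairpin, the gene Mir6366, spans chr16:18165089-18165170 and has 82 bases, of which positions 57 to 78, in capitals, are the mature miRNA.
Mir6366 hairpin: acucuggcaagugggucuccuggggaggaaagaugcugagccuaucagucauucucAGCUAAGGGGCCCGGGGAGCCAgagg

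The hairpin overlapped 0 other genes of the annotation. The nearest gene at lower coordinates, the receptor gene Rtn4r, ended 12681 bases away, and the nearest at higher coordinates, the non-coding RNA gene Gm34679, began 4345 bases away. The mature sequence holds 10 G and 6 C, a GC content of 72.7%, where the median of the 1679 mature miRNAs in the RefSeq table was 52.2%, and 3.28% of them had as much or more. None of the other mature miRNAs in that table shared its seed. The longest run of bases that it shared with another miRNA was 10, with miR-3547-5p, followed by 9 with miR-7648-3p and with miR-711.

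miR-6366 was measured by 2 probes with 15 spots each. All 30 spots were well above background on every analysed array and 0 were saturated. The error that the scanning software gives for the total signal lay between 7.12% and 7.75%, or at most 0.11 on the log2 scale, and the coefficient of variation among the 15 spots of a probe had a median of 2.79% (0.722% to 8.96%). The total signal of miR-6366 ranged from 11080 to 177210 units. Levels below are log2 values after variance stabilizing normalization (VSN), which rescales the arrays to each other, unless they are called signals.

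Per array, the signals of all detected miRNAs added up to between 153088 and 541770 units, and 268 to 798 miRNAs were detected. The tissue labels were checked on 1 miRNA of each tissue. The liver miRNA miR-122-5p was at least 11.19 on the liver arrays and at most 7.38 elsewhere, the muscle miRNA miR-1a-3p at least 13.64 on the heart arrays and at most 7.84 elsewhere, and the neuronal miRNA miR-124-3p at least 12.97 on the brain arrays and at most 4.61 elsewhere. On 4 of the analysed arrays (liver of 0, 1 and 24 h at 4 °C and liver of 0 h at RT), the factor by which the software turned spot signals into total signals was fixed at 0.212, whereas it lay between 0.286 and 0.305 on the others. Unscaled total signals of these arrays are therefore low against the others.

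miR-6366 fell by 4.89 on the log2 scale in heart, by 4.10 in liver and by 4.29 in brain between 0 and 96 h at RT. These changes chose the miRNA and are given as a description, with no test. In linear terms the level at 0 h was 29.6 times that at 96 h in heart, 17.1 times in liver and 19.6 times in brain. In pieces of whole tissue, fewer cells of a type and less RNA per cell cannot be told apart.

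Heart pieces kept at RT for 0, 1, 3 and 6 h had levels of 17.27, 17.14, 17.13 and 16.51, and those kept for 12, 24, 48 and 96 h had 16.03, 15.27, 14.34 and 12.38. Each heart array was lower than the one before it, and Spearman's rho with time was -1. The level stayed within 0.15 of its start over the initial 3 h, which is close to the software's error of a single array, and at 24 h the starting level was 3.99 times what remained.

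Liver pieces kept at RT for 0, 1, 3 and 6 h had levels of 17.59, 17.91, 17.80 and 16.86, and those kept for 12, 24, 48 and 96 h had 16.47, 15.17, 13.85 and 13.49. The highest liver value was thus that of 1 h. At 24 h 18.7% of the level of 0 h remained, and the level at 96 h lay 0.36 below that at 48 h. The liver pieces lost RNA integrity early, with RIN values that went from 7.1 (0 h) to 2.8 (6 h) and 2.3 (96 h).

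Brain pieces kept at RT for 0, 1, 3 and 6 h had levels of 17.09, 16.15, 16.61 and 16.13, and those kept for 12, 24, 48 and 96 h had 16.13, 15.28, 13.81 and 12.79. Between 1 and 12 h the brain values had no order in time. The change from 0 to 1 h was -0.94 in brain against -0.14 in heart and 0.33 in liver, and each of these values is that of a single piece.

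**Figure D1:**
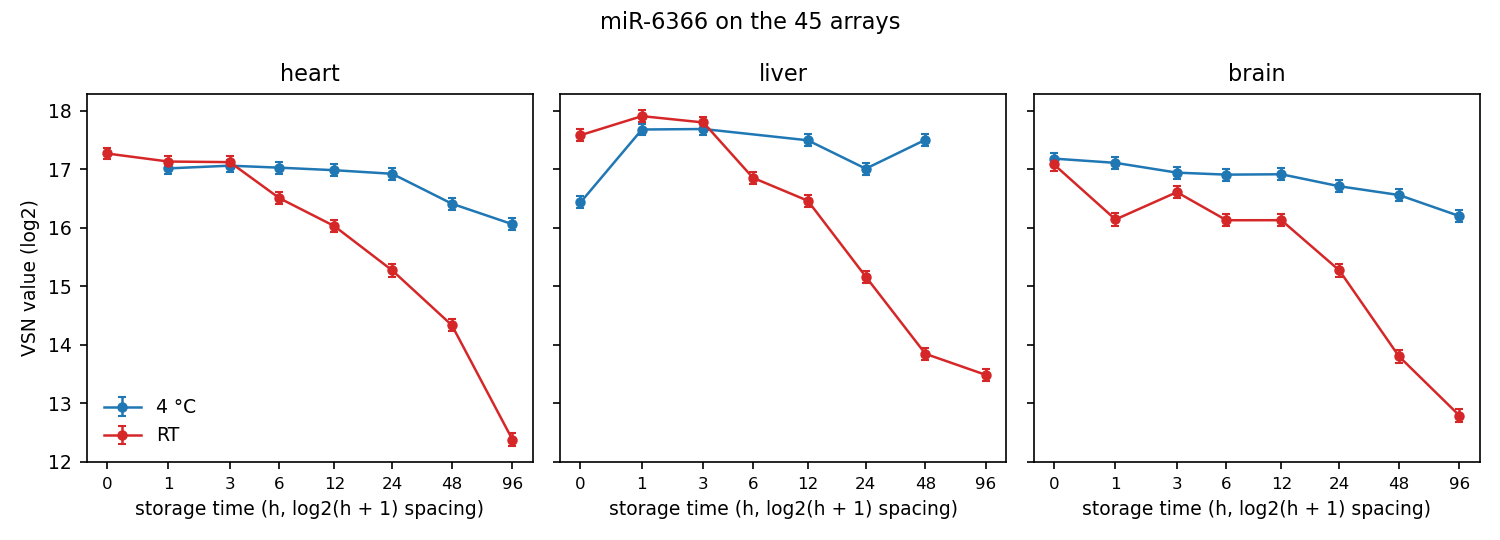
The VSN level of miR-6366 (log2) against storage time (h, spaced as log2(h + 1)) is plotted for heart, liver and brain, with blue points for 4 °C and red points for RT. Each point is 1 array and the bars are the software's error of the total signal, at most 0.11; at 96 h and RT the levels are 12.38, 13.49 and 12.79.

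Straight lines through the 8 arrays of each tissue at RT had slopes of -1.21 ± 0.09 per 24 h (log2, SE) in heart, -1.15 ± 0.22 in liver and -1.02 ± 0.12 in brain. Pearson's r with storage time was -0.982 in heart, -0.905 in liver and -0.962 in brain, and -0.933 over the 24 arrays. Among the 815 miRNAs detected on at least 5 arrays, the next lowest values of r at RT were -0.891 for miR-6412, -0.884 for miR-3968 and -0.849 for miR-3100-3p. Without the arrays of 96 h the slopes were -1.49 in heart, -2.05 in liver and -1.43 in brain. The liver slope moved the most, and its last 2 arrays were the closest together of the 3 tissues.

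The unscaled signal showed the fall as well, with a smaller size in liver. The total signals of heart at 0, 24 and 96 h were 131727, 37038 and 11080 units, so that the first was 11.9 times the last. In brain they were 99952, 40661 and 15339 units, with a ratio of 6.52. In liver the signals at 0, 3, 24, 48 and 96 h were 98781, 177210, 66987, 22922 and 28146 units, so that the lowest value was that of 48 h and the ratio of the ends was 3.51. The mean signal of the spots, which the fixed factor does not touch, gave a log2 change of -2.28 in liver between 0 and 96 h, against -3.58 in heart and -2.75 in brain.

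The difference between scaled and unscaled values goes with the other miRNAs on the same arrays. From 0 to 96 h at RT the summed signal of all other miRNAs went from 219252 to 315332 units in heart, from 111878 to 513624 in liver and from 149664 to 386830 in brain. The liver array of 0 h carries the fixed factor described above, so that the rise of the total signals in liver is overstated. With the mean spot signal, which the factor does not touch, the median of the 815 miRNAs rose by 1.28 in heart, 2.53 in liver and 1.63 in brain (log2). Without scaling, the median of the 815 miRNAs rose over this time by 1.49 in heart, 2.70 in liver and 1.66 in brain (log2), and with VSN by 0.19, 0.74 and 0.11. Relative to these medians miR-6366 changed by -5.06, -4.51 and -4.37 without scaling and by -5.08, -4.84 and -4.41 with VSN. At 0 h and RT only 390 miRNAs were detected in heart, 310 in liver and 491 in brain, so that many of the 815 started undetected. Without scaling, values below 1 unit were set to 1, and the medians depend on such dim values.

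The share of miR-6366 in the summed signal of the detected miRNAs sets it against the total of the same array, itself a scaling. A share also falls when the other miRNAs rise, as their summed signal did in each tissue between 0 and 96 h at RT. Probes differ in how strongly they bind, so that a share of signal is not a share of molecules. At 0, 48 and 96 h of RT the share was 37.5%, 8.32% and 3.39% in heart, 46.9%, 8.66% and 5.20% in liver, and 40.0%, 6.16% and 3.81% in brain. The first and last arrays at 4 °C had shares of 33.6% and 22.8% in heart (1 and 96 h), of 37.2% and 27.4% in brain (0 and 96 h) and of 49.8% and 38.1% in liver (0 and 48 h). Every array at RT from 24 h on lay below every array at 4 °C of the same tissue.

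Both probes of miR-6366 fell at RT, but not by the same ratio. The mean spot signal of probe A_54_P00006058 was 11.6 times as high at 0 h as at 96 h in heart, 5.39 times in liver and 6.18 times in brain. For probe A_54_P00006059 the ratios were 12.5, 4.18 and 8.17. The sequences of the probes are not in the files used here.

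The signal of the second probe as a percentage of that of the first was not constant over time. In heart at RT it went from 56.7% at 0 h to 38.7% at 24 h and back to 51.7% at 96 h. For the same times it was 61.2%, 44.3% and 78.8% in liver, while in brain it went from 50.7% to 39.8% and 38.2%. At 4 °C the percentage fell from 53.3% at 1 h to 43.3% at 96 h in heart and from 57.8% at 0 h to 47.7% at 96 h in brain. The lowest value of both heart and liver at RT was thus that of 24 h, and the later arrays lay above it. The percentage also differed with signal. It was 72.5% on the liver array of 3 h at RT, with a mean spot signal of 306241 units. On the brain array of 1 h at RT, with 112545 units, it was 44.3%. The late heart and liver arrays at RT went the other way. Whether the percentage follows time or signal was not tested.

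**Figure D2:**
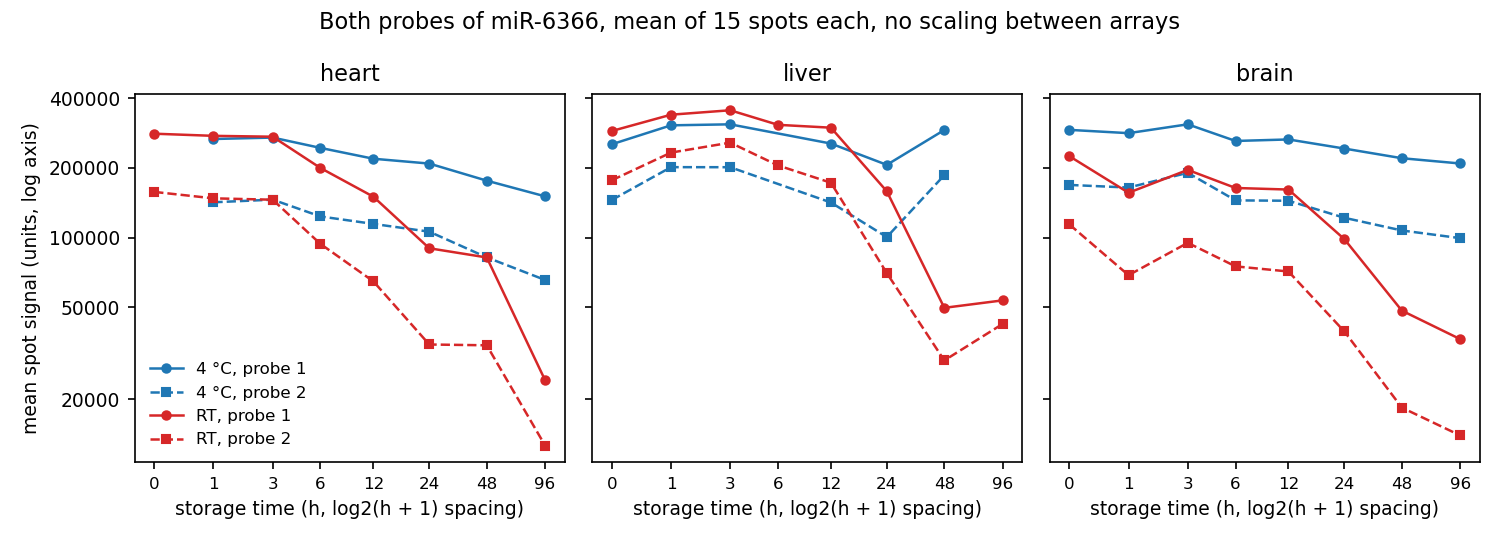
The mean spot signal of each of the 2 miR-6366 probes (units, log axis, 15 spots, no scaling between arrays) is plotted against storage time (h, spaced as log2(h + 1)) per tissue, with 4 °C in blue and RT in red, circles for probe A_54_P00006058 and squares for probe A_54_P00006059. Both probes fall at RT, and in liver both are higher at 96 h than at 48 h.

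Between the temperatures, the arrays of the same tissue and time point differed by time. In heart the level at RT minus that at 4 °C was 0.12, 0.06, -0.52 and -0.95 after 1, 3, 6 and 12 h, and -1.65, -2.08 and -3.68 after 24, 48 and 96 h. In brain the differences after 0, 1 and 12 h were -0.10, -0.97 and -0.79, and those after 24, 48 and 96 h were -1.44, -2.76 and -3.41. In liver the differences after 1, 3, 12, 24 and 48 h were 0.23, 0.11, -1.03, -1.85 and -3.66. From 12 h on the RT array was the lower in each tissue. At 0 h, before any storage, the liver arrays lay 1.15 apart, with 16.44 on the array labelled 4 °C and 17.59 on that labelled RT.

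The fall at RT chose miR-6366, and the arrays at 4 °C hold pieces of other animals. The choice was made with results of both temperatures known, so that the tests at 4 °C are not independent evidence of its direction. At 4 °C miR-6366 fell with storage time, with r = -0.645 over 21 arrays (permutation p = 0.00168, 2-sided, 100000 resamples) and Spearman's rho of -0.518 (permutation p = 0.0175). After Benjamini-Hochberg adjustment of Pearson's p over the 815 miRNAs, the value was 0.0342. It was 1 of 3 miRNAs with a negative r that passed, 0.368% of those tested, and the other two were miR-652-5p (r = -0.872) and miR-3968 (r = -0.755), which are named because the count is small. The p-values measure the spread between pieces of 1 animal per tissue and not between animals. The study itself named only miR-652-5p as lower after longer storage at 4 °C, so that miR-6366 was not among its calls there.

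Heart pieces kept at 4 °C for 1, 3, 6, 12 and 24 h had levels of 17.02, 17.06, 17.03, 16.99 and 16.93, and those kept for 48 and 96 h had 16.42 and 16.06. The arrays up to 24 h lay close together, and those of 48 and 96 h lay below all of them. The slope was -0.27 ± 0.02 per 24 h (SE), with r = -0.979 (exact permutation p = 0.000794, 0.00119 after adjustment over the 3 tissues). Without the 2 arrays farthest from the median time r was -0.919. With the heart array of 0 h that the study set aside it was -0.156, and the call was lost.

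Brain pieces kept at 4 °C for 0, 1, 3 and 6 h had levels of 17.19, 17.11, 16.95 and 16.91, and those kept for 12, 24, 48 and 96 h had 16.92, 16.71, 16.56 and 16.20. The only array above the one before it was that of 12 h. The slope was -0.22 ± 0.03 per 24 h, with r = -0.962 (exact permutation p = 4.96e-05, adjusted 0.000149), and r was -0.898 without the 2 farthest arrays. The call was lost with the 75th percentile of the miRNAs detected on all arrays (r = -0.676), with normexp background correction (-0.644) and relative to the 9 abundant miRNAs (-0.109), with adjusted p of 0.0558, 0.0848 and 0.763 in exact permutation tests. At 96 h 50.6% of the level of 0 h remained in brain, and in heart 51.6% of that of 1 h.

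Liver pieces kept at 4 °C for 0, 1, 3, 12, 24 and 48 h had levels of 16.44, 17.68, 17.69, 17.50, 17.01 and 17.51. The array of 0 h was the lowest and the others had no steady direction. The slope was 0.09 ± 0.31 per 24 h, with r = 0.143 (exact permutation p = 0.767), and r was -0.409 without the array of 0 h and -0.07 without that of 48 h. The direction turned with the scaling, to r = -0.903 with the 75th percentile of the miRNAs detected on all arrays, which passed (adjusted p = 0.00625, exact permutation test), and to -0.519 relative to the 9 abundant miRNAs, -0.446 with normexp and -0.139 with the mean spot signal, which did not. The total signal at 0 h, 84890 units, carries the fixed factor described above. Its mean spot signal was 199267 units against 253657 at 1 h.

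With tissue as a block in limma the slope over the 21 arrays was -0.21 ± 0.06 per 24 h (SE), with an adjusted p of 0.0309 over 815 miRNAs, of which 8 with a negative slope passed (0.982%). The moderated F test of a difference between the tissues in the slope gave an adjusted p of 0.520, where 7.61% of the miRNAs passed. A difference between the liver slope and the others was therefore not detectable with these arrays.

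The pooled call was lost when any 1 of 6 arrays was left out. Leaving out the heart array of 48 h or 96 h gave r of -0.626 and -0.525 (adjusted p = 0.0640 and 0.137), and leaving out the brain array of 48 h or 96 h gave -0.630 and -0.561 (adjusted p = 0.0638 and 0.158). Without the brain array of 0 h or 1 h r hardly moved, at -0.638 and -0.642, and the adjusted p was 0.0542 and 0.0501. Without the 2 arrays farthest from the median time r was -0.309. The adjusted p was 0.0686 without scaling, 0.0544 with the 75th percentile of the miRNAs detected on all arrays, 0.776 relative to 9 abundant miRNAs and 0.560 with the heart array of 0 h that the study set aside.

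The levels at 4 °C had the order liver, brain, heart, with means over the time points of 17.31 ± 0.49 (SD, n = 6), 16.82 ± 0.32 (n = 8) and 16.79 ± 0.39 (n = 7). In limma with storage time in the model, liver minus heart was 0.41 ± 0.19 (SE, adjusted p = 0.0771) and liver minus brain 0.41 ± 0.18 (adjusted p = 0.0505), while 47.5% and 70.3% of the 815 miRNAs passed in these contrasts. Brain minus heart was 0.00, with a 95% interval of -0.36 to 0.36 (adjusted p = 0.985), where 65.6% passed. None of the neighbours in the order differed past the threshold with VSN.

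The calls depended on single liver arrays, and the order on the scaling. Liver stayed the highest without any single array, and without its array of 0 h, liver minus heart was 0.60 (adjusted p = 0.000282) and liver minus brain 0.60 (adjusted p = 9.57e-05). Without the liver array of 24 h, liver minus brain passed as well, at 0.45 (adjusted p = 0.0460). Liver minus brain was -0.17 without scaling, where the fixed factor lowers 3 of the 6 liver arrays, and 2.37 relative to the 9 abundant miRNAs. Brain minus heart passed in limma in opposite directions under different scalings. It was -0.48 relative to the 9 abundant miRNAs (adjusted p = 0.0296) and 0.19 with normexp (adjusted p = 0.00029). At RT the means over the 8 time points were 16.14 ± 1.77 (SD) in liver, 15.76 ± 1.70 in heart and 15.50 ± 1.47 in brain, and the groups overlapped.

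Against RIN, miR-6366 had r = -0.217 over the 21 arrays at 4 °C (permutation p = 0.350) with rho of 0.0923 (permutation p = 0.688), and the adjusted p over 815 miRNAs was 0.761, where 2.45% passed with a negative r and 0.736% with a positive one. The pooled value mixes tissues of different RIN. Within heart, where RIN went from 8.8 to 8.1, r was 0.803 (exact permutation p = 0.0429, adjusted 0.0643). Within brain, where it went from 8.7 to 7.3, r was 0.932 (exact permutation p = 0.00238, adjusted 0.00714), and within liver r was -0.315 (exact permutation p = 0.508).

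RIN and storage time fell together within heart and brain, so that their parts in the level of miR-6366 cannot be told apart there. When the 2 arrays of most extreme RIN (by distance from the median) were dropped, the heart, brain and liver values of r were 0.319, 0.599 and 0.291. With a RIN of 3.4, the liver piece kept at 4 °C for 48 h had a level of 17.51, whereas the liver array of 3 h at RT, with a RIN of 4.1, had 17.80 and that of 96 h at RT, with a RIN of 2.3, had 13.49. In heart at RT the level was 17.27 at 0 h, with a RIN of 9, and 15.27 at 24 h, with a RIN of 8.2. Each of these values is that of a single piece, and the part of RIN in them was not tested.

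As a description of the arrays that chose miR-6366, r with RIN at RT was 0.949 in heart, 0.722 in liver and 0.974 in brain. In liver RIN was 2.7 at 24 h and 2.4 at 48 h, while the level went from 15.17 to 13.85.

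miR-6366 was compared in its course with the other 179 miRNAs detected on all 45 arrays, by Pearson's r over the 24 arrays at RT after each tissue's mean was taken off. These values share arrays and their scaling and are descriptive. They ranged from -0.928 to 0.965 with a median of 0.503, and 12 were above 0.8. The highest were 0.965 for miR-3968, 0.892 for miR-125a-5p, 0.888 for miR-212-3p, 0.874 for miR-3963 and 0.858 for miR-5100. Over the 21 arrays at 4 °C, the same measure was 0.918, 0.837, 0.768, 0.816 and 0.548, with a median of 0.559 over the 179.

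miR-3968, also a late entry in the catalogue, fell from 14.20 at 0 h to 8.23 at 96 h at RT in heart, from 13.93 to 6.66 in liver and from 13.13 to 8.21 in brain. Its first and last levels at 4 °C were 13.92 and 11.85 in heart, 13.63 and 11.24 in brain, and 13.30 and 14.18 in liver. Its r with storage time over the 21 arrays at 4 °C was -0.755 (adjusted p = 0.00617). Like miR-6366, it was lowest on the liver array of 0 h among the liver arrays at 4 °C.

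miR-125a-5p, a widely expressed relative of the developmental regulator lin-4, changed at RT by -2.25 in heart, -3.41 in liver and -2.28 in brain between 0 and 96 h. miR-212-3p, encoded beside miR-132 in the genome, changed by -3.66, -2.88 and -0.76. miR-3963 changed by -3.27, -5.68 and -1.08, and miR-5100 by -2.59, -4.20 and -0.74. In brain miR-6366 and miR-3968 thus changed by more than 4 on the log2 scale, and miR-212-3p, miR-3963 and miR-5100 by about 1 or less. At 4 °C none of the last 4 passed for storage time, with adjusted p-values from 0.712 to 0.999. Of all 815 miRNAs 0.368% passed with a negative r and 4.91% with a positive one, so that this count says nothing particular about the 4.

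**Figure D3:**
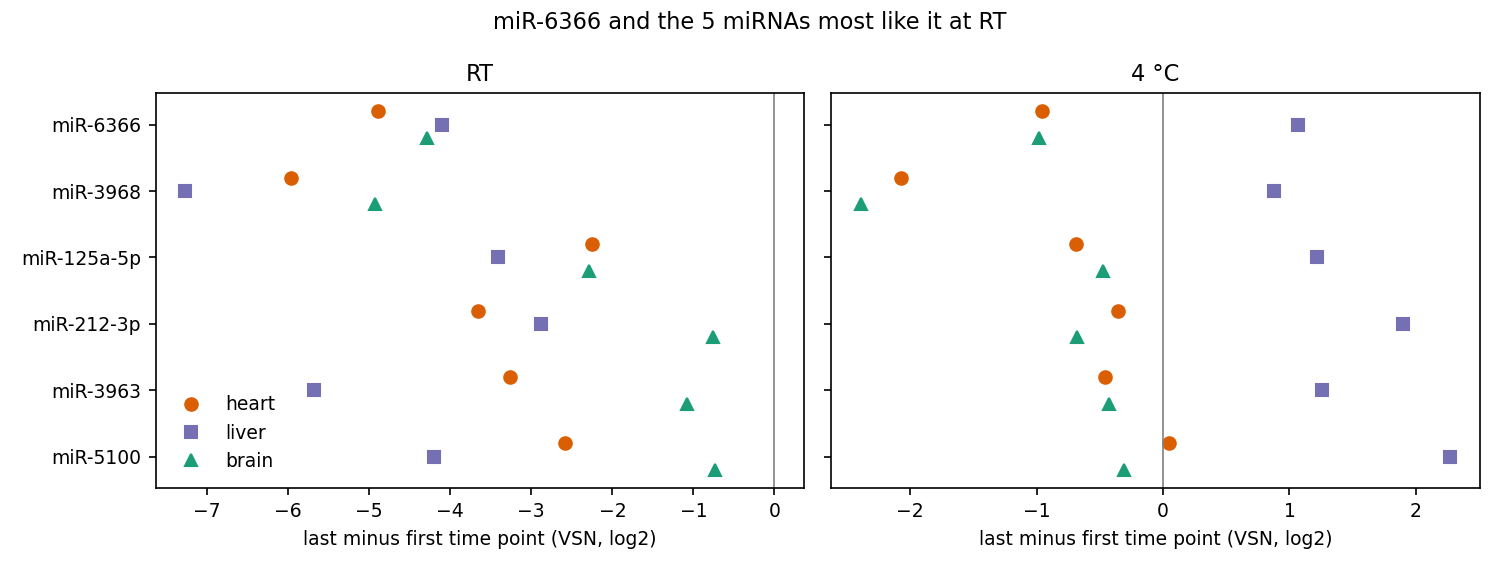
The change in VSN level (log2) from the first to the last time point is plotted for miR-6366 and the 5 miRNAs most like it at RT, with RT on the left and 4 °C on the right, a circle for heart, a square for liver and a triangle for brain. At RT every change lies below 0, and at 4 °C every liver change, from 0 to 48 h, lies above 0. The liver array of 0 h at 4 °C was the lowest of its group for each of these miRNAs.

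The sequences printed at the start show what these miRNAs share. miR-6366 shared no run of more than 4 bases with any of the 5, and none of them had its seed. miR-3968, miR-3963 and miR-5100 all hold the run AUCCCA, with 8 bases common to miR-3968 and miR-3963 and 9 to miR-3968 and miR-5100. This run was picked after the sequences were seen. It stands in 7 of the 1679 mature miRNAs (0.417%), all of them on the array.

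Of the other 4 carriers of this run, miR-7656-3p and miR-7679-3p were detected on 0 of the 45 arrays and miR-6963-3p on 1. miR-191-5p, detected on 8 arrays, had a likeness to miR-6366 of 0.843 at RT and 0.527 at 4 °C, and most of its values were called not detected. The mature miR-6366, miR-3968 and miR-212-3p end in CCA, as do 1.37% of the mature miRNAs in the table. The GC content was 57.1% for miR-3968, 54.5% for miR-212-3p, 47.4% for miR-3963 and 61.9% for miR-5100, below that of miR-6366, and miR-125a-5p had the same number of G and C as of A and U. By seed, miR-125a-5p goes with miR-125b-5p, miR-351-5p, miR-6367 and miR-6394, and miR-212-3p with miR-132-3p.

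miRNAs with numbers close to its own, from miR-6336 to miR-6420, are neighbours in registration and not in sequence. The array held 88 of them, of which 48 were detected on no array and 28 on at least 5. Besides miR-6366, 3 were detected on all 45 arrays. Between 0 and 96 h at RT, miR-6360 went from 5.06 to 5.97 in heart, from 3.68 to 6.89 in liver and from 4.80 to 5.98 in brain, all upward. miR-6368 went from 8.97 to 9.94 in heart, from 8.82 to 8.64 in liver and from 8.75 to 8.01 in brain, and miR-6402 from 4.94 to 3.08, from 5.25 to 2.63 and from 5.03 to 5.80, so that both had no common direction in the 3 tissues.

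Without miR-6366 the 27 tested neighbours had a median slope of 0.70 per 24 h at RT, and 8 of them were below 0. The median of all 815 was 0.07, with 382 below 0. The list's median turned to -0.03 when arrays were scaled to the 75th percentile over all miRNAs. That percentile lay at undetected miRNAs on some heart and liver arrays. At 4 °C its median slope was 0.14 against 0.00 for all, and 0 of the 27 passed with a negative r (0.368% of all miRNAs), 2 at an unadjusted p under 0.05 (1.35% of all) and 1 in limma (0.982% of all). miR-6392-3p passed with a positive one (r = 0.734, adjusted p = 0.00826), as did 4.91% of all. miR-6366 had the slope of -1.13 at RT, and 2 of the 815 miRNAs had a lower one. Among these was the tested neighbour miR-6412, detected on 44 arrays, with a slope of -1.17. Between 0 and 96 h at RT it went from 6.29 to 2.09 in heart, from 6.36 to 0.02 in liver and from 6.06 to 2.95 in brain. At 4 °C its slope was -0.30 against -0.21 for miR-6366, and its Pearson's r of -0.586 did not pass (adjusted p = 0.0781).

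The 9 abundant miRNAs found in most tissues, namely let-7a-5p, let-7b-5p, let-7c-5p, let-7f-5p, miR-16-5p, miR-23a-3p, miR-24-3p, miR-26a-5p and miR-30c-5p, give a scale for the fall. Over the 3 tissues at RT, with each tissue's mean taken off, all 9 had slopes below 0, with a median of -0.61 per 24 h. They ran from -0.46 for miR-16-5p to -0.79 for let-7f-5p, each less steep than miR-6366. In liver alone this order did not hold. There, between 0 and 96 h, let-7f-5p went from 11.39 to 5.53 and let-7a-5p from 11.12 to 6.04. Over the same time miR-30c-5p went from 8.99 to 4.12 and miR-24-3p from 8.29 to 4.14. Each of these fell by more than miR-6366, which went from 17.59 to 13.49, and the rest of the 9 fell by less. The median slope of the 9 at RT was -0.24 without scaling and -1.60 with the 75th percentile over all miRNAs, which has the limit given above. At 4 °C their median slope was -0.04, and 0.00 without scaling. There 0 of 9 passed with a negative r, at an unadjusted p under 0.05 or in limma, and with 0.368%, 1.35% and 0.982% of all miRNAs doing so these counts say nothing particular about the 9.

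Scaling moved the size of the fall at RT but not its sign. The slope per 24 h ranged over the 8 scalings from -2.67 to -0.86 in heart, from -2.28 to -0.06 in liver and from -1.37 to -0.66 in brain. The liver value of -0.06 came from scaling to the 9 abundant miRNAs, and left a change of -0.54 between 0 and 96 h where the median of the 815 miRNAs rose by 5.07.

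**Figure D4:**
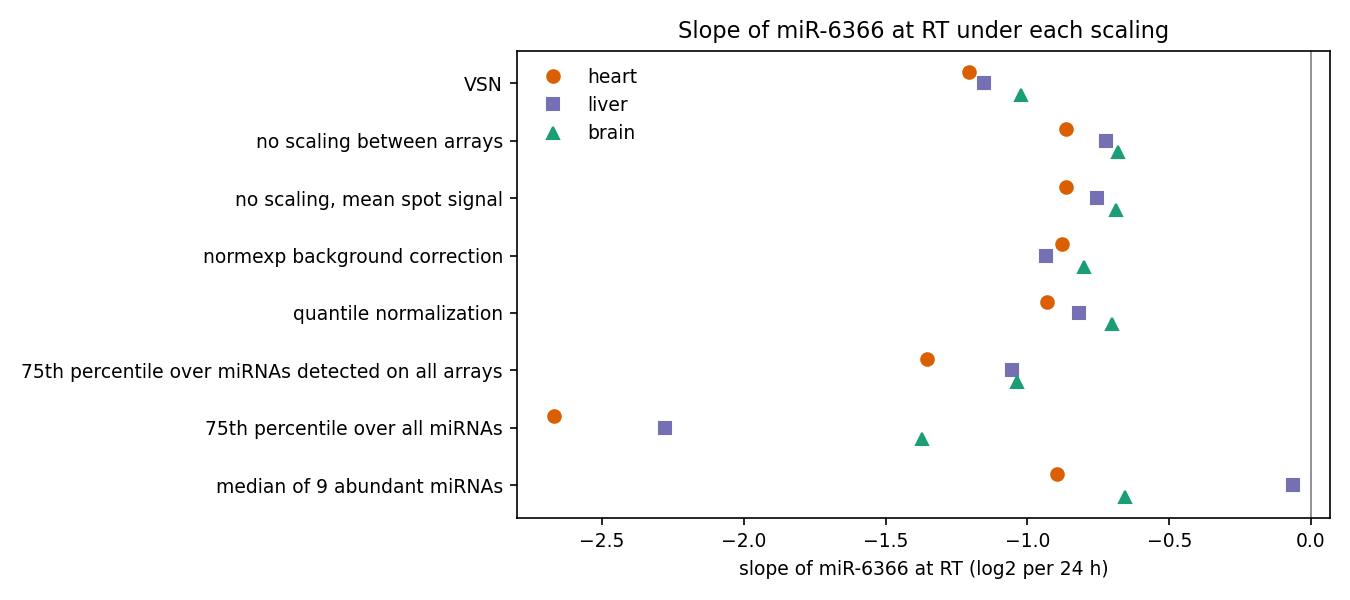
The slope of miR-6366 at RT (log2 per 24 h) is plotted for 8 ways of scaling the arrays, with a circle for heart, a square for liver and a triangle for brain, each from 8 arrays. All slopes lie below 0, and the one nearest to 0 is liver relative to 9 abundant miRNAs, at -0.06.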

How the data were processed

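Mouse RNA from 3 organs was measured on 46 Agilent miRNA arrays with 1 colour. The authors read the arrays with Agilent Feature Extraction, which gives a background-subtracted signal intensity per spot, probe and miRNA, and deposited these scanner files. They also deposited a table of log2 values after VSN in R, not centred per miRNA. Its columns correlated with the log2 total signal at r of 0.9998 or more over the brighter detected miRNAs, 64 to 324 per array. Dimmer detected miRNAs were not in this comparison. The medians of the columns lay between 0.14 and 0.93. Signal over background limits the values of dim miRNAs, and precision is limited by how few arrays there are. No reads or counts lie behind these values.

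As in the study, 1 heart array (0 h, 4 °C) was left out for low quality. Time points follow the labels, with 12 h where the methods give 14 h. Pearson's r, Benjamini-Hochberg adjustment over 815 miRNAs detected on at least 5 arrays, and a threshold of 0.05 follow the methods. The calls at 4 °C are not those of the study, which named only miR-652-5p as lower after longer storage there. Its abstract places these correlations in liver, and the reason for the difference was not tested. Differences between tissues and the slope with a tissue block were tested with limma 3.58.1 in R 4.3.3, and permutation tests ran in Python 3.11.15 with 100000 resamples or, within a tissue, all orders. The tests were run on simulated data with known slopes and tissue differences, where pooled Pearson's r missed slopes laid over a large tissue difference and limma with tissue did not.

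Named were miR-6366, the 5 miRNAs most like it at RT, 88 miRNAs from miR-6336 to miR-6420, 9 abundant miRNAs, and a marker of each tissue. miR-6366 and these lists were chosen with earlier results of these data known. Alternatives were no scaling (total or mean spot signal), quantile normalization, 75th percentiles, the 9 abundant miRNAs as a reference, and normexp background correction on median spot signals (offset 50, since mean signals were not among the columns). Others were minimum numbers of arrays, hours on a log scale, Bonferroni adjustment, and leaving out arrays. The mean spot signal, the run without the liver arrays of 0, 1 and 24 h and the time point as a block were chosen after seeing the data. Of the array's miRNAs, 1608 of 1881 were found by name among the RefSeq mature sequences.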

Additional observations from a re-analysis of the deposited data

How the results depend on the processing

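Every title carries the same replicate number, so that only the time point can pair tissues. With it as a replicate block in limma, liver minus heart was 0.47, liver minus brain 0.41, brain minus heart 0.06 and the F statistic of the slope difference 1.01, and it changed no call. At 4 °C, r of miR-6366 with storage hours was -0.645 and its adjusted p passed in 7 of 14 other settings. It did not pass with no scaling (r = -0.563), the 75th percentile over miRNAs detected on all arrays (-0.644) or over all miRNAs (-0.148), the 9 abundant miRNAs (-0.280), the heart array of 0 h added (-0.306), log2(hours + 1) (-0.472) or Bonferroni adjustment (-0.645, adjusted p = 1). Leaving out 1 array gave -0.750 to -0.525, with adjusted p from 0.00752 to 0.158. Quantile normalization gave miR-6366 the same value on all 21 arrays at 4 °C, so that this setting was void there. Within heart r went from -0.979 to -0.156 with the array of 0 h added, and ranged from -0.992 to -0.951 when 1 array was left out. Within brain it was -0.676 with the 75th percentile over miRNAs detected on all arrays, -0.109 with the 9 abundant miRNAs and -0.644 with normexp, none past the threshold, and -0.977 to -0.924 when 1 array was left out. Within liver it turned from 0.143 to -0.903 (adjusted p = 0.00625), -0.519 and -0.446 under the same 3 settings and to -0.139 with the mean spot signal, and ranged from -0.409 to 0.322 when 1 array was left out. The r with RIN at 4 °C turned from -0.217 to 0.031 with the 75th percentile over miRNAs detected on all arrays and ranged from -0.309 to 0.135 without 1 array.

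Liver minus heart at 4 °C, 0.41 and not past the threshold, passed at 0.93 with the 75th percentile over miRNAs detected on all arrays, 1.89 with the 9 abundant miRNAs, 0.13 with normexp, 0.31 with the mean spot signal and 0.72 without the liver arrays of 0, 1 and 24 h, and ranged from 0.29 to 0.60 without 1 array. Liver minus brain, 0.41, passed at 0.86, 5.32 (75th percentile over all miRNAs), 2.37 and 0.72 under the corresponding settings and at 0.41 with a minimum of 3 or 10 arrays (adjusted p = 0.0497 and 0.0487), turned to -0.17 with no scaling and -0.065 with normexp, and ranged from 0.29 to 0.60 without 1 array. Brain minus heart, 0.00 and not past the threshold, passed at -5.28 with the 75th percentile over all miRNAs, which fell at the level of undetected miRNAs in heart and liver. It also passed at -0.48 with the 9 abundant miRNAs and, in the other direction, at 0.19 with normexp and 0.28 with the mean spot signal. Without those 3 liver arrays it was -9.74e-06, and it ranged from -0.029 to 0.022 without 1 array. The F statistic of the slope difference, 1.54, stayed on its side of the threshold in all 11 settings, and ranged from 0.139 to 2.81 without 1 array.

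At RT, r was -0.933 and moved to -0.738 with the 75th percentile over all miRNAs and -0.404 with the 9 abundant miRNAs, with a range of -0.941 to -0.914 without 1 array. The slopes per 24 h in heart, liver and brain, -1.21, -1.15 and -1.02, stayed below 0 in all settings. In heart the slope moved to -0.86 with no scaling, -0.87 with the mean spot signal, -2.67 with the 75th percentile over all miRNAs, -0.93 with quantile normalization, -0.90 with the 9 abundant miRNAs and -0.88 with normexp. In liver it moved to -2.28 and -0.064 with the 75th percentile over all miRNAs and the 9 abundant miRNAs, and in brain to -1.37 and -0.66, and to -0.68 with no scaling, -0.69 with the mean spot signal and -0.70 with quantile normalization. Without 1 array the slopes ranged from -1.49 to -1.18 in heart, -2.05 to -1.05 in liver and -1.43 to -0.96 in brain. Except where the construction of a setting is named, the cause was not tested.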

Other observations

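The heart array of 0 h at 4 °C, which entered only the alternative runs that name it, had a VSN level of 14.71 for miR-6366. The heart array of 1 h at 4 °C had 17.02. Its total signal was 86754 units, with the fixed factor of 0.212, and the mean signal of its spots was 203446 units against 204462 at 1 h. On this array 215 miRNAs were detected, where the analysed heart arrays at 4 °C had 412 to 450, and miR-6366 held 43.1% of the summed signal of 201161 units.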
